A study of Mus musculus with 4 samples.

Results

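The genes described here carry mouse symbols of the form Zfp followed by a number, most of which encode zinc finger proteins, and were followed in mouse embryonic 3T3 fibroblasts given tumour necrosis factor (TNF). They were chosen by their measured signal: a gene entered if its probe set of highest mean log2 signal reached 102 on at least 1 of the 4 arrays, and symbols starting with Zfp36 were left out. Of 329 such genes named on the array, 87 entered, out of 18193 named genes in all, of which 7311 reached the same signal and are called genes of clear signal below. The threshold of 102 lies at the 75th percentile when the values of the 4 arrays are pooled. The 4 groups were basal cells and cells after 0.5, 2 and 12 h of TNF, with 1 array of each. All 4 came from an immortal 3T3 line, kept overnight in 0.5% serum before harvest or stimulation. Per the labels' protocols TNF was used at 10 ng/ml for 0.5 and 12 h. The protocol of the 2 h sample names no concentration and repeats the basal text, and its title and source name place it at 2 h of TNF. No array of cells kept for the same times without TNF was analysed here, so TNF and elapsed time cannot be told apart. With 1 array per group there is no spread between replicates and 0 tests were run; "rose" and "fell" below mean a ratio of at least 2-fold.

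Zinc finger proteins of the C2H2 type fold short loops around a zinc ion, and a row of such fingers reads a DNA sequence. Many of them carry a KRAB domain, which recruits the co-repressor Trim28 and, through it, the histone methyltransferase Setdb1 and heterochromatin proteins, and a well known task of this class is to silence retroelements. Others act at promoters, in RNA processing or in signalling. Transcripts of this gene class are often short-lived, so that their levels can follow a change in synthesis quickly. The symbol Zfp is given by name and not by function: Zfp185, for example, encodes a LIM domain protein associated with the actin cytoskeleton rather than a C2H2 factor.

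The 87 genes are those with a clear signal and not all Zfp genes. A further 242 stayed under the threshold on all 4 arrays, and 17 of those were under the 30th percentile of all values (9.08) throughout. The share that reached the threshold was 26.4% of the Zfp genes and 40.2% of all named genes. Of the 87, 61 reached it on all 4 arrays, 9 on 3, 9 on 2 and 8 on 1. Zfp160, Zfp239, Zfp449, Zfp512b, Zfp513, Zfp53, Zfp687 and Zfp866 are the 8 that entered through a single array, so the array on which each is high helped to select it. Other members under 102 on some arrays, such as in basal cells, likewise entered through the rest, and their ratios are partly set by this. The members just inside were Zfp160, Zfp513 and Zfp449, with highest signals of 102.6, 103.9 and 105.1, and the genes just outside were Zfp511, Zfp334 and Zfp280d, with 101.96, 100.6 and 99.7. No member had a value under 9.08, the floor to which low signals were raised. Of 7 fibroblast markers 6 had a clear signal, namely Col1a1, Col1a2, Col3a1, Vim, Pdgfrb and Fn1, while Thy1 stayed between 10.9 and 14.6. None of the 11 leukocyte, endothelial and epithelial markers named on the array reached 102.

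Zfp genes as a group stayed near their basal level through 12 h of TNF. Of the 87, 85 (97.7%) were within 2-fold of basal at every time, against 95.8% of all genes of clear signal. Within 0.5 on the log2 scale at all 3 times were 63 members (72.4%), against 75.5% of all genes of clear signal. The median log2 ratio to basal was -0.03 at 0.5 h, -0.15 at 2 h and -0.20 at 12 h for the members, and -0.05, -0.12 and -0.21 for all genes of clear signal. Over all probe sets of the arrays the median log2 ratio was -0.05, -0.12 and -0.20 at these times. After loess scaling against the basal array, the member medians were 0.02, -0.03 and 0.02.

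**Figure D1:**
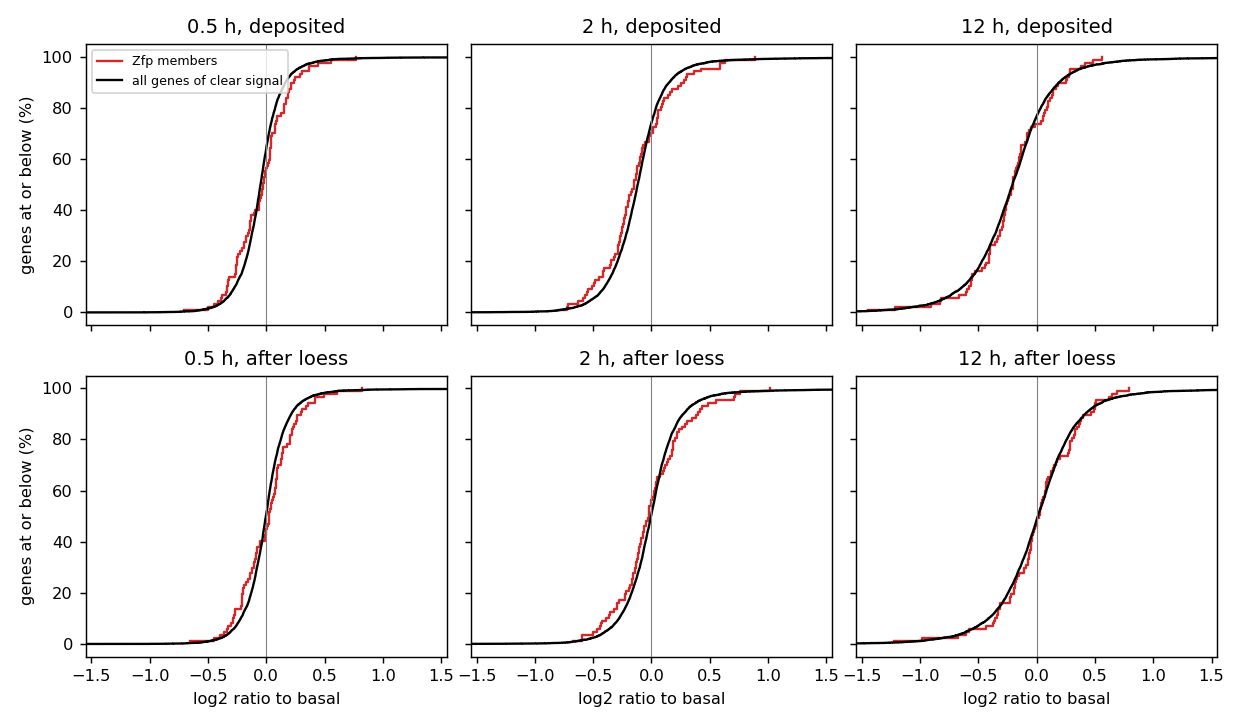
Cumulative share of genes (vertical axis, percent) at or below a given log2 ratio to basal (horizontal axis) for the 87 Zfp members and all 7311 genes of clear signal, at 0.5, 2 and 12 h, with deposited signals above and after loess below. The member curve runs close to that of all genes at 12 h and is somewhat wider at 2 h, where it spans -0.80 to 0.89 with deposited signals.

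No member rose or fell at 0.5 h or at 2 h with deposited signals. Among all genes of clear signal 0.438% rose and 0.0684% fell at 0.5 h, and 0.821% rose and 0.328% fell at 2 h. At 12 h 0 members rose and 2 fell, Zfp267 and Zfp185, a share of 2.30% against 2.64% of all genes of clear signal that fell and 1.03% that rose. After loess 0 members changed at 0.5 h, where 0.465% of all genes of clear signal rose and 0.0547% fell. At 2 h 1 member, Zfp263, then rose, against 0.998% (0.219% fell), and at 12 h 1, Zfp267, fell, against 1.20% (1.46% rose). These member shares lie near the background or rest on 1 or 2 genes. In RNA of whole cultures, fewer cells of a kind and less RNA per cell cannot be told apart.

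A smaller step of 1.5-fold separated more genes. At 0.5 h 1 member, Zfp639, was higher by that much and 1, Zfp160, was lower, or 1.15% each, against 0.944% and 0.78% of all genes of clear signal. At 2 h 4 members were higher and 4 lower, 4.60% each, against 1.63% and 3.10%. At 12 h 0 were higher and 8 lower (9.20%), against 2.45% and 12.4%. This split depended on the scaling: after loess 4 members were higher and 4 lower at 12 h (4.60% each), against 4.86% and 5.18% of all genes of clear signal. After loess 2 members were higher and 1 lower at 0.5 h, against 1.29% and 0.52%, and 4 were higher and 3 lower at 2 h, against 2.43% and 1.60%. Scatter was wider at low signal, and 63 of the 87 members have a mean log2 signal under 8. In all genes of clear signal the central 90% of ratios at 2 h ran from -0.65 to 0.52 below a mean log2 signal of 7, from -0.53 to 0.30 between 7 and 8, from -0.45 to 0.21 between 8 and 9, and from -0.36 to 0.15 above 9.

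**Figure D2:**
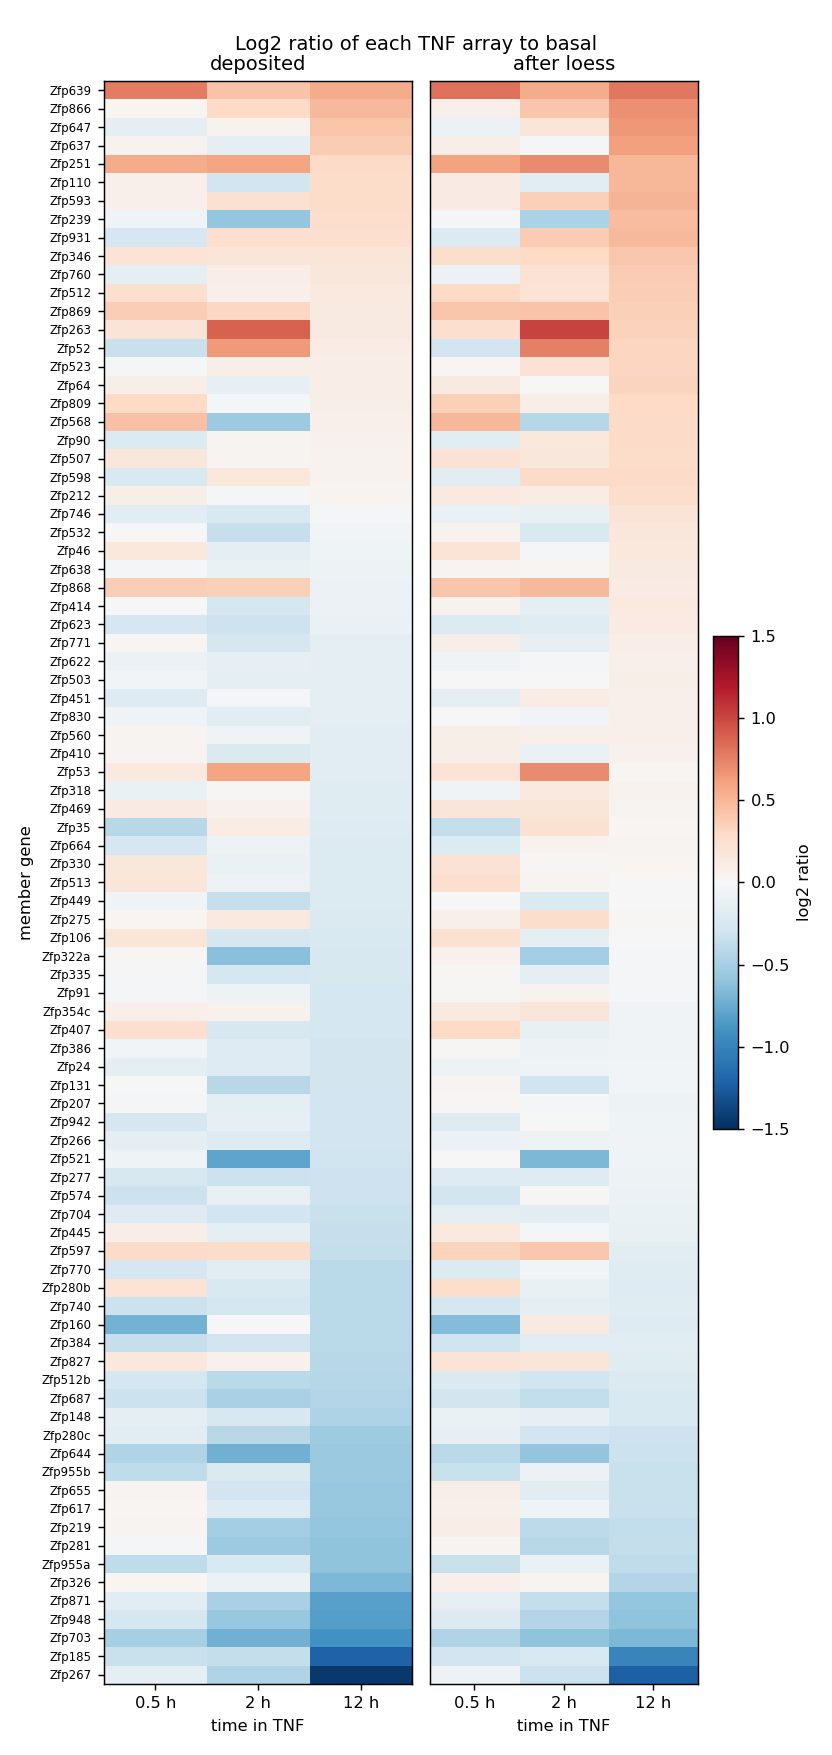
Log2 ratio to basal (colour) for each of the 87 members (rows, ordered by the deposited ratio at 12 h) at 0.5, 2 and 12 h (columns), with deposited signals on the left and after loess on the right. The darkest blue cells are Zfp267 and Zfp185 at 12 h, and the darkest red cell in each panel is Zfp263 at 2 h.

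Zfp267 had the largest ratio of any member. Its probe set 1455757_at gave signals of 284 in basal cells and 259, 208 and 104 at 0.5, 2 and 12 h. Each array was lower than the one before, and most of the decrease lay between 2 and 12 h, where the log2 ratio was -1.003. At 12 h it fell 2.73-fold, a log2 ratio of -1.45, and -1.22 after loess. A second probe set of the gene, of lower signal, gave 70.5, 63.6, 57.1 and 42.8 in the same order of arrays and a log2 ratio of -0.72 at 12 h. Among all genes of clear signal the 3 whose centred log2 signals over the 4 arrays lay nearest to those of Zfp267 were Bub1, Knstrn and Spc25, at Euclidean distances of 0.05, 0.07 and 0.07. Their log2 ratios at 12 h were -1.39, -1.40 and -1.43; likeness over 4 arrays is a description only.

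The 250 bases before the start of Zfp267 are shown because it is the 1 member that fell with and without loess. They lie at chr3:36150830-36151079 on the plus strand of GRCm38.p6 in RefSeq, with matches to CCAAT on either strand in capitals.
Zfp267: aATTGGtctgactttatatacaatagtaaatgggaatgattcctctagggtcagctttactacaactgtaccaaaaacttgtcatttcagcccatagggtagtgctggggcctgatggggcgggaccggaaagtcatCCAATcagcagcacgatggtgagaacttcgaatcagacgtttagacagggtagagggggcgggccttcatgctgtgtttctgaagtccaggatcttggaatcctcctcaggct
The stretch holds 2 CCAAT matches and 6 CpG dinucleotides.

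Zfp185, the LIM domain gene, gave 261 in basal cells and 206, 203 and 112 at 0.5, 2 and 12 h on probe set 1420944_at. The signals at 0.5 and 2 h lay close together and the step to 12 h had a log2 ratio of -0.85. At 12 h the gene fell 2.32-fold (log2 ratio -1.21), but after loess the ratio was -0.99, just short of the rule. Its other probe set, at 75.9 in basal cells and 49.7 at 12 h, gave -0.61.

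Zfp703, Zfp948 and Zfp871 came next at 12 h, all short of 2-fold. Zfp703 encodes a co-repressor of the Nlz family, and its signals were 517 in basal cells and 366, 313 and 275 at 0.5, 2 and 12 h. It was among the 5 lowest ratios at each time, with -0.50, -0.72 and -0.91 with deposited signals and -0.45, -0.60 and -0.67 after loess. Zfp871 gave 401, 356, 286 and 227 over the same arrays, a log2 ratio of -0.82 at 12 h, and its 2 other probe sets gave -0.86 and -0.38. Zfp948 gave 212, 177, 142 and 119, a ratio of -0.83 at 12 h. On the probe sets used for these 3 genes every array was lower than the one before. This held in 17 of the 87 members (19.5%) and in 24.0% of all genes of clear signal, or 6.9% and 8.71% after loess. The 2 other probe sets of Zfp871 were above basal at 0.5 h (0.05 and 0.18).

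**Figure D3:**
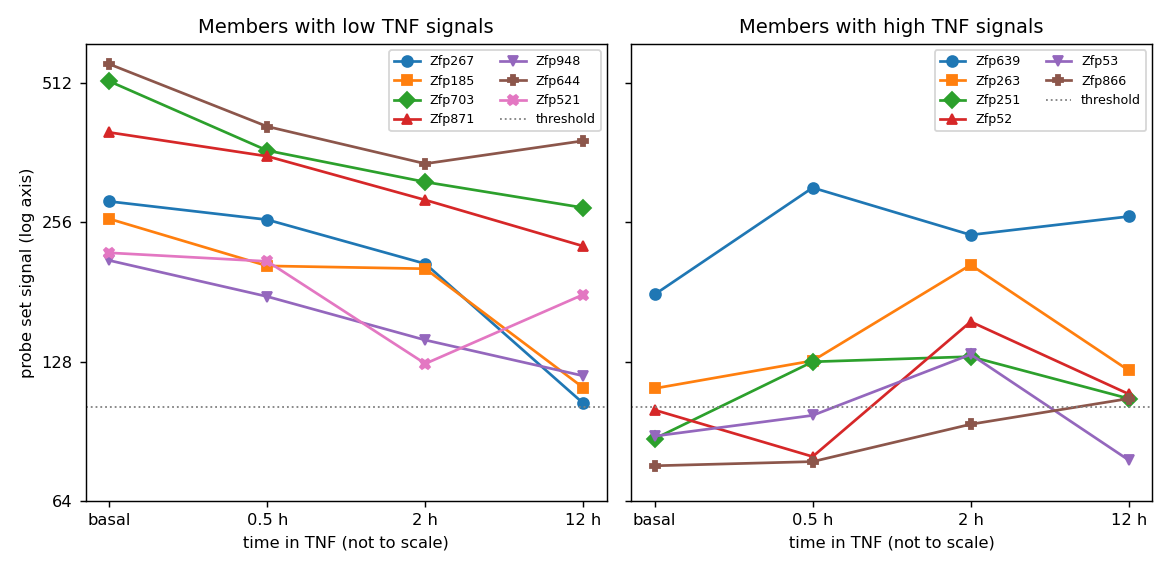
Probe set signal (log axis) of 13 members on the 4 arrays (basal, 0.5, 2 and 12 h of TNF; horizontal spacing not to scale), with the selection threshold of 102 as a dotted line. Zfp267 and Zfp185 end at 104 and 112 at 12 h after 284 and 261 in basal cells, while Zfp639 stands at 304 at 0.5 h against 179 in basal cells and Zfp263 peaks at 207 at 2 h.

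At 2 h other members were among the lowest ratios, and on the probe sets used the signal of several was higher again at 12 h. The further probe sets of Zfp521, Zfp644 and Zfp322a given here were lower at 12 h than at 2 h. Zfp521, a nuclear factor that binds Ebf1 and restrains fat cell differentiation, gave 220 in basal cells and 211, 127 and 179 at 0.5, 2 and 12 h. Its log2 ratio was -0.80 at 2 h and -0.30 at 12 h, while its second probe set, at a signal of 60.4 in basal cells, gave -0.87 and -0.92. The 2 h signal was below basal on both probe sets, and the 12 h signal was nearer to basal on 1 of them. Zfp644, a partner of the histone methyltransferase G9a, gave 563, 413, 343 and 384 over the 4 arrays, with ratios of -0.45, -0.72 and -0.55. Its 2 other probe sets of clear signal gave -0.45 and -0.51 at 2 h and -0.52 and -0.91 at 12 h. Zfp322a gave 152 in basal cells and 98.0 at 2 h (-0.63), but its second probe set gave 0.15. Zfp239, also called Mok2, an RNA- and DNA-binding protein, had 89.0 in basal cells, 59.4 at 2 h and 106 at 12 h (ratios of -0.58 and 0.26). Only its 12 h array was over the threshold, so its entry into the set depended on that value.

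Zfp263 at 2 h and Zfp639 at 0.5 h had the highest ratios of the members, and Zfp251 was also high at each time. Zfp639 gave 179 in basal cells and 304, 240 and 264 at 0.5, 2 and 12 h on its 1 probe set. All 3 TNF arrays were above basal, with log2 ratios of 0.77, 0.43 and 0.56, or 0.82, 0.56 and 0.79 after loess. It had the highest ratio of any member at 0.5 and 12 h and stood among the 5 highest at every time. Zfp251, with 87.2, 128, 131 and 106 over the arrays, was also among the 5 highest at every time (0.55, 0.59 and 0.29). It was under 102 in basal cells and entered through its 0.5, 2 and 12 h arrays. Its direction is therefore partly set by the selection.

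Zfp263, a factor that carries SCAN and KRAB domains in humans, gave 112 in basal cells and 129, 207 and 122 at 0.5, 2 and 12 h. The 2 h array stands apart from the other 3. The ratio at 2 h was 0.89 with deposited signals and 1.01 after loess. A second probe set of clear signal gave 89.0, 105, 134 and 115 and a ratio of 0.59, also highest at 2 h. The probe set used is of the type marked _s_at, whose probes can match transcripts of more than 1 gene.

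At 12 h Zfp866, Zfp647 and Zfp637 followed Zfp639. Zfp637 gave 383, 397, 345 and 500 over the arrays, with ratios near 0 at 0.5 h (0.05) and 2 h (-0.15) and 0.38 at 12 h. Zfp647 gave 148, 134, 153 and 197, with 0.42 at 12 h, and Zfp866 gave 76.2, 77.8, 93.7 and 106, with 0.48. For Zfp866 the 12 h array was the only one over the threshold, so its entry into the set depended on that value. At 0.5 h Zfp160 and Zfp35 were among the lowest, at 62.5 and 97.0 against 102 and 129 in basal cells (-0.70 and -0.41). Both were near basal again at 2 h, with 0.01 and 0.11. Only the 2 h array of Zfp160 was over the threshold, so its entry into the set depended on that value.

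Members with a known role were grouped into lists, chosen with earlier results of these data known. Of the silencers of retroelements and imprinted genes 3 of 7 listed genes had a clear signal, and 0 rose or fell. Of all genes of clear signal 95.8% were within 2-fold of basal at every time. Zfp445, which protects imprinted methylation, gave 402 in basal cells and 429, 363 and 317 at 0.5, 2 and 12 h (ratios of 0.10, -0.15 and -0.34). Zfp809, which silences leukaemia proviruses through Trim28, gave 101, 124, 99.0 and 107. Zfp568, which represses a placental promoter of Igf2, gave 97.3, 132, 66.5 and 102, with ratios of 0.44 at 0.5 h and -0.55 at 2 h. With deposited signals all 3 were above basal at 0.5 h, where 64.0% of all genes of clear signal were below it. All 3 were below basal at 2 h, as were 74.2% of all genes of clear signal. Zfp809 and Zfp568 were under 102 in basal cells and entered through their 0.5 and 12 h arrays. Their direction at 0.5 h is therefore partly set by the selection. After loess Zfp809 was above basal at 2 h (0.10). The other probe sets of clear signal of Zfp445 gave -0.48 and 0.07 at 0.5 h and -0.18 and 0.06 at 2 h.

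In the list of mesenchymal fate and differentiation, 4 of 8 genes had a clear signal and all 4 were below basal at 2 and 12 h with deposited signals and after loess, none by 2-fold. Of all genes of clear signal 74.2% were below basal at 2 h and 76.9% at 12 h with deposited signals, and 50.9% and 48.6% after loess. The median log2 ratio of the 4 was -0.21 at 0.5 h, -0.62 at 2 h and -0.49 at 12 h, or -0.16, -0.50 and -0.27 after loess. All genes of clear signal had -0.12 at 2 h and -0.21 at 12 h with deposited signals, and -0.004 and 0.009 after loess. Among listed genes under the threshold, Zfp516 was above basal at 2 and 12 h (0.28 and 0.15). Zfp467 and Zfp462 were below basal at both times, and Zfp423 was under the floor. Beside Zfp521 and Zfp703 the 4 included Zfp384 and Zfp219. Zfp384, also known as Nmp4 or Ciz, binds metalloproteinase and collagen promoters in bone cells, and gave 460, 361, 379 and 346 (-0.35, -0.28 and -0.41). Zfp219, a partner of Sox9 in cartilage, gave 110, 113, 76.9 and 73.6, with ratios of 0.04, -0.51 and -0.58. It was under the threshold at 2 and 12 h and entered through its basal and 0.5 h arrays. The direction of Zfp219 at 2 and 12 h is therefore partly set by the selection. The same holds for the counts and medians of this list, to which it contributes.

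Promoter and chromatin factors included 9 of 19 listed genes with a clear signal. Of these 8 were below basal at 2 h and 9 at 12 h, with medians of -0.35 and -0.41, or -0.22 and -0.19 after loess. After loess 8 were below basal at 2 h and 7 at 12 h. These counts stand beside 74.2% and 76.9% of all genes of clear signal below basal with deposited signals, and 50.9% and 48.6% after loess. Zfp687 reached 102 only in basal cells, and Zfp335 only in basal cells and at 0.5 h. Zfp532 was under 102 at 2 h (90.5) and entered through the rest. The counts and medians of this list are therefore partly set by the selection. Zfp281, a GC-rich sequence binder of stem cells, gave 367, 364, 251 and 242 (-0.01, -0.55 and -0.60), and its second probe set gave -0.08 at 2 h and -0.44 at 12 h. Zfp148, also called ZBP-89, another factor of GC-rich promoters, gave 451, 407, 381 and 326. Its 6 probe sets were all below basal at 12 h, and the 5 of clear signal spanned -0.47 to -0.23. Zfp131, which carries a BTB domain, gave 562, 558, 421 and 463, with ratios of -0.41 at 2 h and -0.28 at 12 h. Among listed genes under the threshold, Zfp608 was above basal at 2 and 12 h (0.15 and 0.93, and 1.10 at 12 h after loess). Zfp217 was above basal at 2 h (0.08) and below it at 12 h (-0.31). With deposited signals Zfp592, Zfp462, Zfp518b and Zfp292 were below basal at both times, and Zfp711 was under the floor.

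Among signalling and cell death genes 5 of 10 had a clear signal and 0 rose or fell, where 95.8% of all genes of clear signal stayed within 2-fold. Zfp91, a ubiquitin ligase for the kinase NIK of the non-canonical NF-kB pathway, gave 464, 456, 441 and 388, with ratios of -0.03, -0.07 and -0.26 and -0.02 at 12 h after loess. Its other probe set of clear signal, at 222 in basal cells, gave -0.19, -0.34 and -0.55. Zfp110, also called Nrif, which binds the p75 neurotrophin receptor, gave 122, 129, 99.8 and 148; its ratio of 0.28 at 12 h stood against -0.20 and -0.26 on its other probe sets, so the direction was not settled. Zfp451, a SUMO ligase, gave 154, 135, 153 and 140.

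Of 9 listed genes of RNA processing, ribosomes and translation 8 had a clear signal and 0 rose or fell. The background was again 95.8% of all genes of clear signal within 2-fold at every time. Their median log2 ratios at 0.5, 2 and 12 h were 0.01, -0.10 and -0.11. Zfp622, related to the yeast 60S ribosome maturation factor Rei1, had the highest mean signal of any member, at 1264 in basal cells and 1186, 1163 and 1152 at 0.5, 2 and 12 h. Its ratios were -0.09, -0.12 and -0.13. Zfp598, a ubiquitin ligase that marks collided ribosomes, gave 313, 268, 349 and 324 (-0.22, 0.16 and 0.05). Zfp106, an RNA-binding protein needed by motor neurons, gave 668, 760, 560.5 and 572. Zfp326, part of a complex that couples splicing to elongation, was within 0.1 (log2) of basal at 0.5 and 2 h and gave 195 at 12 h against 311 in basal cells, a ratio of -0.67 (-0.43 after loess). The mitotic member Zfp207, known as BuGZ, which loads Bub3 on kinetochores, gave 1191, 1174, 1085 and 979, with -0.28 at 12 h (-0.07 after loess). Its other probe set of clear signal, at 191 in basal cells, was above basal, with 0.10, 0.15 and 0.06 at 0.5, 2 and 12 h. Zfp275 gave 556, 568, 614 and 478 and completes the 5 members of highest mean signal.

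The co-repressor machinery that KRAB zinc finger proteins use was examined beside them. Of 30 listed genes 26 were named on the array and 22 had a clear signal, of which 0 rose and 1 (4.55%) fell, at 12 h, where 1.03% of all genes of clear signal rose and 2.64% fell. The median log2 ratios of the 22 were -0.04, -0.14 and -0.32, or 0.00, -0.04 and -0.10 after loess, and 19 of the 22 were below basal at 12 h (14 after loess). At 1.5-fold 4 were lower at 12 h (18.2%, against 12.4%), or 1 after loess. Beside Chd4 these were Chd3, a related remodelling ATPase (-0.79), Dnmt1, the maintenance DNA methyltransferase (-0.72), and Mphosph8, a subunit of the HUSH silencing complex (-0.60). Mphosph8 had -0.60, -0.91 and -0.60 at 0.5, 2 and 12 h. Chd3, Dnmt1 and Mphosph8 are named after their values were seen. Trim28 itself gave 821 in basal cells and 796, 772 and 760 at 0.5, 2 and 12 h, and its ratio at 12 h was -0.11. Rbbp7, Rbbp4 and Hdac1, subunits of deacetylase complexes, gave -0.47, -0.31 and -0.48 at 12 h. Chd4, the remodelling ATPase of the NuRD complex, fell 2-fold or more at 12 h (227 in basal cells and 171, 178 and 105 at 0.5, 2 and 12 h; log2 ratio -1.11, and -0.88 after loess). Its other probe sets, of lower signal, gave -0.78 and -1.20. Suv39h2, a histone methyltransferase gene under the threshold, gave 68.4, 64.5, 27.6 and 29.2, a fall at 2 h (-1.31) and 12 h (-1.23), while its other probe sets gave -1.60 and -0.25 at 2 h and -1.92 and 0.04 at 12 h, so that 1 of the 3 showed no fall.

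Zfp genes often lie in clusters of related copies, and in RefSeq 12 pairs of members were next to each other or separated by at most 2 protein-coding genes. They involve 21 of the 87 genes. Zfp955a and Zfp955b, with 1 protein-coding gene between them, gave nearly the same ratios on the probe sets used. These were -0.38, -0.22 and -0.61 for Zfp955a and -0.39, -0.22 and -0.56 for Zfp955b. Their second probe sets, of lower signal, were less alike. That of Zfp955a gave -0.002, -0.51 and -1.04, and that of Zfp955b gave -0.14, -0.22 and -0.27. On the probe sets used the signals were 242, 186, 207 and 159 for Zfp955a, and 145, 111, 125 and 98.7 for Zfp955b. Both were lowest at 12 h, and on these probe sets their values at 0.5 h lay below those at 2 h. Near-identical copies can share probes, so the 2 probe sets used cannot be taken as separate measurements.

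The promoters of this pair are shown because they are the same sequence. The windows of 300 bases agree at 300 of 300 positions although the genes lie on opposite strands, at chr17:33255146-33255395 on the minus strand for the 250 upstream bases of Zfp955a and at chr17:33289294-33289543 on the plus strand for Zfp955b (RefSeq, GRCm38.p6). Capitals again mark CCAAT on either strand, here 3 matches.
Zfp955a: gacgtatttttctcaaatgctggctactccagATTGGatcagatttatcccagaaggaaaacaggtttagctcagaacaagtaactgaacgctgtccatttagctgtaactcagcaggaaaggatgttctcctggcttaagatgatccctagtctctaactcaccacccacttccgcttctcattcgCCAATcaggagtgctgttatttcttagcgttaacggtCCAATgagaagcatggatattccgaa

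Zfp53 and Zfp52 are direct neighbours and both had their highest signal at 2 h. Zfp53 gave 88.3 in basal cells and 97.9, 133 and 78.4 at 0.5, 2 and 12 h, and Zfp52 gave 101, 79.8, 156 and 109. Zfp53 entered only through its 2 h array, and Zfp52 only through its 2 and 12 h arrays. The direction of both at 2 h is therefore partly set by the selection. Their ratios at 2 h were 0.59 and 0.63 with deposited signals, while those at 0.5 h had opposite signs, 0.15 and -0.33. The second probe sets of both genes were low and did not show the peak, with 0.02 for Zfp52 and -0.41 for Zfp53. Zfp948, the neighbour of Zfp52 on its other side, had -0.57 at 2 h. The upstream stretches of Zfp53 and Zfp52 lie on the plus strand at chr17:21488738-21488987 and chr17:21535289-21535538 (RefSeq, GRCm38.p6). They are shown to let the copies be compared; a local alignment of the 300-base windows matched 79 of 96 aligned bases (82.3%), and capitals mark CCAAT matches.
Zfp53: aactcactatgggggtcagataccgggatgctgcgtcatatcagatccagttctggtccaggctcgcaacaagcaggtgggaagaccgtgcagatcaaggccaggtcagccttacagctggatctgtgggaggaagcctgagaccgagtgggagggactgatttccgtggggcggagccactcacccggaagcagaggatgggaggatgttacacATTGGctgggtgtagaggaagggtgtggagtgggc
Zfp52: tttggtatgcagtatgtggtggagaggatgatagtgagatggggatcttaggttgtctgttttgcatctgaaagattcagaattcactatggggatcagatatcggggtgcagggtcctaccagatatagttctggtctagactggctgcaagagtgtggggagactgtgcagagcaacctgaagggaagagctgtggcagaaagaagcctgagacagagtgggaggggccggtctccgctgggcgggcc

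A further run of 3 members, Zfp868, Zfp869 and Zfp866, has 1 protein-coding gene between each pair. At 2 h their ratios were 0.36, 0.31 and 0.30, and all 3 lay above basal, while at 12 h they spread to -0.09, 0.14 and 0.48. Zfp868 gave 88.5, 114, 114 and 83.4, and Zfp869 gave 113, 146, 140 and 125. Zfp868 was under the threshold in basal cells and entered through its 0.5 and 2 h arrays. Its direction at 2 h is therefore partly set by the selection. The same holds for Zfp866 at 12 h, the only array through which it entered. Other neighbours differed more: Zfp326 and Zfp644 had -0.09 and -0.72 at 2 h, and Zfp637 and Zfp239 had -0.15 and -0.58. The 12 pairs thus held both like and unlike ratios.

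**Figure D4:**
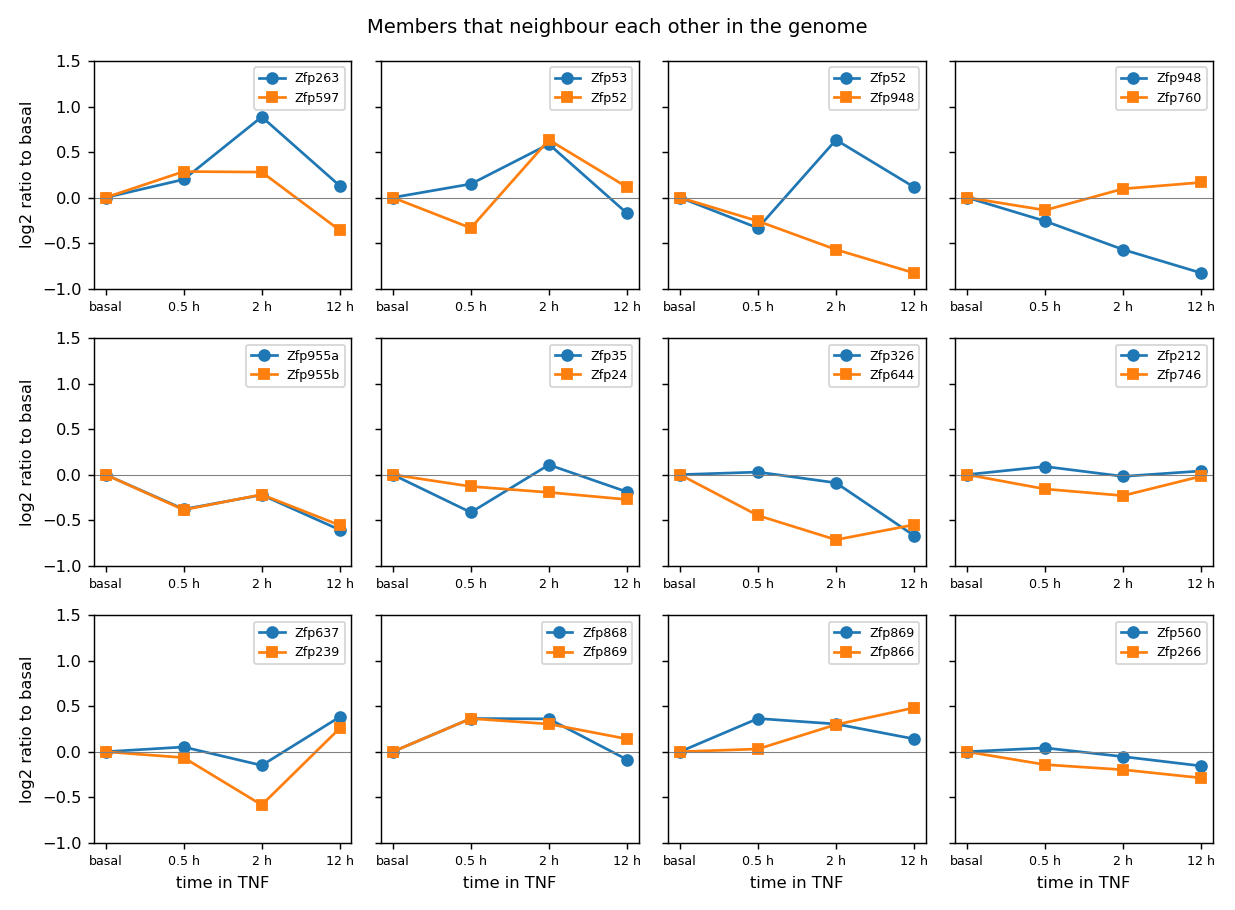
Log2 ratio to basal (vertical axis) at 0.5, 2 and 12 h for the 12 pairs of members that neighbour each other in RefSeq, 1 pair per panel, with basal set to 0. Zfp955a and Zfp955b overlie each other, Zfp53 and Zfp52 both peak at 2 h, and Zfp52 and Zfp948 part after 0.5 h. Zfp53 entered the set only through its 2 h array, and Zfp52 only through its 2 and 12 h arrays.

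Promoter windows of 300 bases, from 250 before to 50 after the gene start, were found for 69 of the 87 members, taking the first window listed for each gene. CCAAT, read by the factor NF-Y, stood on either strand in 38 of the 69 (55.1%), against 39.0% of 6022 genes of clear signal and 37.9% of all 27025 windows. The GC box GGGCGG stood in 65.2%, against 69.6% and 35.9%, and the ETS motif CCGGAAG in 20.3%, against 21.3% and 9.12%. The NF-kB motif GGANTTTCC, on either strand, matched 2 members (2.90%), Zfp617 and Zfp771, against 1.31% and 1.23%. TGACGTCA, the cAMP response element, matched 3 (4.35%), against 3.57% and 1.88%. Both strands were searched, each motif was counted on its own, and matches that overlap another motif were kept. A match describes only these windows. The median window held 18 CpG dinucleotides in members, 23 in genes of clear signal and 7 in all windows.

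Agreement between probe sets of a gene gives the only internal check of these ratios. Of the 87 members 34 had 1 probe set and 53 had 2 to 6. For 14 members 22 further probe sets reached 102 on some array. Their ratio differed from that of the probe set used by a median of 0.21 (log2) at 0.5 h, 0.21 at 2 h and 0.24 at 12 h, and by at most 0.62, 0.47 and 0.59. The sign was shared by 10 of the 22 at 0.5 h, 17 at 2 h and 18 at 12 h. Probe sets of 1 gene share their RNA and array and are not replicates. The members' own ratios exceeded the median difference in size in 32 of 87 at 0.5 h, 47 at 2 h and 49 at 12 h, and exceeded the highest difference in 2, 15 and 8.

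**Figure D5:**
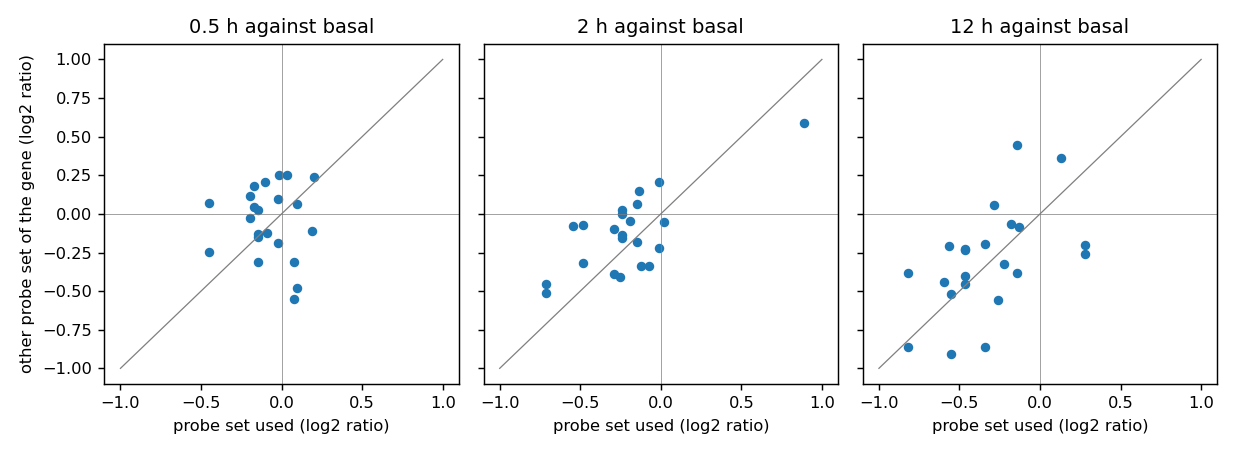
Log2 ratio to basal of the 22 further probe sets of clear signal (vertical axis) against that of the probe set used for the same gene (horizontal axis) at 0.5, 2 and 12 h, for 14 members, with the line of equal values. At 0.5 h only 10 of the 22 share the sign of the probe set used, and at 12 h 18 do.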

How the data were processed

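RNA of 4 samples was hybridised to Affymetrix whole-genome mouse arrays, per the labels' protocols. The authors deposited a linear intensity for every probe set; for its algorithm and scaling, the sources used here give nothing. Of 45101 probe sets 64 were controls and 34945 carried 1 gene in the platform annotation; probe sets with several genes (932) or none named no gene. Where a gene had several probe sets, the one of highest mean log2 signal was used. Signals under the 30th percentile (9.08) were raised to it, and log2 ratios to basal were taken with no further scaling and called at 2-fold. All 87 symbols were found in RefSeq (GRCm38.p6).

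Alternatives were loess (limma 3.58.1 loessFit, span 0.3, 4 iterations), median centring, quantile normalization, other floors, folds and member rules, and the mean of probe sets. The ratio, call and loess steps were tested on simulated data. The members and lists were chosen with earlier results of these data known. The genes named include the 5 highest and 5 lowest ratios at each time and those past 2-fold with and without loess. They also include the 5 of highest mean signal, those next to the threshold, at most 4 per role list, and the 3 nearest profiles. Co-repressor genes that passed 2-fold are named with the 4 of highest signal. Other genes are named as neighbours, motif matches, entries through some arrays only, or listed genes under the threshold. These others were chosen after their values were seen. A split into KRAB and other proteins was planned and not run, as no protein sequences were used here. With 1 array per group the number of arrays limits the precision.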

Additional observations from a re-analysis of the deposited data

How the results depend on the processing

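With 1 array per group no replicate could be left out. No paired analysis was possible because each group holds 1 array. Beside the 0 members higher at 2 h, loess and quantile normalization each gave 1, Zfp263. Beside the 2 members lower at 12 h, loess and quantile normalization each gave 1, and the 3-fold rule 0. The 1.5-fold rule gave 1 higher and 1 lower at 0.5 h, 4 and 4 at 2 h and 0 higher and 8 lower at 12 h, where loess and quantile normalization each gave 4 higher and 4 lower and median centring 2 and 5. The median log2 ratio at 2 h (-0.149) was -0.025 with loess and -0.039 with quantile normalization. That at 12 h (-0.204) was 0.016 with loess, -0.051 with median centring and 0.026 with quantile normalization, so its sign depended on the scaling. Counts at 2-fold were the same with median centring, a floor at the threshold, no floor, members chosen by mean signal, the threshold doubled, and, added after seeing the data, with 3 further genes whose symbols start with Zfp36. The mean of probe sets also gave 2 lower at 12 h, Zfp267 and Zfp704, and Zfp185 was not among them. Zfp267 stayed below basal under each of these settings; Zfp185 was at -0.99 with loess or quantile normalization and -0.91 with the mean of its probe sets. Low signals limit most other members. At 2 h most members lay within the central range of ratios given above for genes of like signal. Among the 29 members of mean log2 signal below 7, 0 lay below that range and 3 above. Between 7 and 8 it was 3 below and 3 above, of 34. Between 8 and 9 it was 4 below (Zfp281, Zfp644, Zfp703 and Zfp871) and 1 above (Zfp931), of 20. At higher signal it was 0. Whether these counts exceed scatter was not tested.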

Other observations

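The selection by symbol also left out Zfp362, Zfp367 and Zfp369, which share only the first digits of the name with the RNA-binding Zfp36 family and had a clear signal. Zfp367 gave 425 in basal cells and 353, 304 and 243 at 0.5, 2 and 12 h, with log2 ratios of -0.27, -0.49 and -0.81 (-0.57 at 12 h after loess). Zfp369, which like Zfp110 is named for binding the p75 neurotrophin receptor, gave 137, 102, 93.2 and 102, and Zfp362 gave 169, 183, 172 and 171. None of the 3 passed 2-fold.

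Zinc finger genes with other symbols were measured too. Of the 18 Zbtb, Zkscan and Zscan genes of clear signal 0 rose or fell at any time. This lies near the background, as 95.8% of all genes of clear signal were within 2-fold of basal at every time. Their median log2 ratios were 0.02, -0.17 and -0.08, against -0.03, -0.15 and -0.20 in the 87 Zfp genes; the difference was not tested.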
